A study of Mus musculus with 48 samples.

Results

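The genes described here build the carbohydrate ligands of L-selectin on high endothelial venules (HEVs), the post-capillary venules through which lymphocytes enter lymph nodes (LNs). They were chosen by name, with earlier results of these data known, and comprised 8 genes: *Glycam1*, *Chst4*, *Chst2*, *Fut7*, *Gcnt1*, *B3gnt3*, *St3gal6* and *Enpp2*. Named probes were found for 7 of the 8 genes, and all 7 lay above the background level of the arrays and were tested among 13299 genes in all. *Enpp2* was not analysed here.

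L-selectin on lymphocytes binds sugars rather than protein. A sialomucin such as GLYCAM1 carries O-linked glycans, which GCNT1 branches and B3GNT3 extends. The chain ends are then capped with sialic acid by ST3GAL6 and related enzymes, fucosylated by FUT7 and sulfated on N-acetylglucosamine by CHST4 and CHST2. The finished structure, sulfated sialyl Lewis X, is the core of the peripheral node addressin by which HEVs are recognised, and blood endothelial cells (BECs) of venules are its known source in LNs.

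Gene expression was measured on Illumina mouse bead arrays in stromal cells of skin-draining LNs from wild-type control mice, called naive, and from mice that had received Eμ-*Myc* lymphoma B cells by intravenous injection, called tumor. Per the labels the lymphoma cells made up 4% to 10% of LN lymphocytes at harvest, so the host's own lymphocytes were still present. A paper that credits these arrays to an earlier study used young adult mice of both sexes on a C57BL/6N background. Its methods do not say whether this holds for the array mice. After leukocyte depletion, CD31+gp38- BECs, CD31+gp38+ lymphatic endothelial cells (LECs), CD31-gp38+ fibroblastic reticular cells (FRCs) and a double negative (DN) fraction were sorted. Each of the 8 groups held 3 biological replicates read on 2 array strips each, and each array received 80 ng of RNA pooled from 4 to 6 sorts, so a replicate is a pool and not a single mouse.

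The sorts carried the markers of their labels. Summed over 10 blood endothelial markers, the log2 signal was 17.99 to 18.08 in naive BECs and 13.18 to 14.07 in naive FRCs. *Prox1*, the master regulator of lymphatic identity, read 12.61 to 13.37 in LECs and no more than 9.32 in any BEC replicate. *Pdpn*, which encodes gp38, read at least 14.02 in every FRC and LEC replicate. BECs and LECs were not fully apart in such markers. Naive BECs exceeded naive FRCs 6.04-fold in *Prox1* and 27.5-fold in *Lyve1* (adjusted p = 0.002 and 0.00042), but not in *Pdpn*. Naive LECs exceeded naive DN cells 16.7-fold in *Car4* and 17.5-fold in *Gpihbp1*, both capillary genes (adjusted p = 0.00011 and 0.00021). The capillary genes *Rgcc*, *Cd36* and *Col4a1* did not differ there by the test. In BECs the brightest markers were *Egfl7* for blood endothelium, *Ccl21a* for lymphatic and reticular cells, *Acta2* for pericytes and smooth muscle, *Laptm5* for leukocytes, *Cd79b* for B cells, *Cd3d* for T cells and *Cd14* for myeloid cells. All 4 probes of *Ptprc*, which encodes CD45, stayed at or below 5.69, near the background level of 5.58. Probes of *Pax5*, *Cd4*, *Cd8a*, *Itgam* and *Itgax* likewise read no more than 5.7. Other leukocyte markers lay well above that level in BECs, as their sums below show. The dim probes therefore do not show that the sorts were free of leukocytes. Strips carried between 863780 and 1044181 beads. Over all genes, naive BEC replicate 2 correlated with replicates 1 and 3 at 0.973 and 0.975 against 0.992 between those, and naive DN replicate 2 at 0.926 and 0.928 against 0.978.

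**Figure D1:**
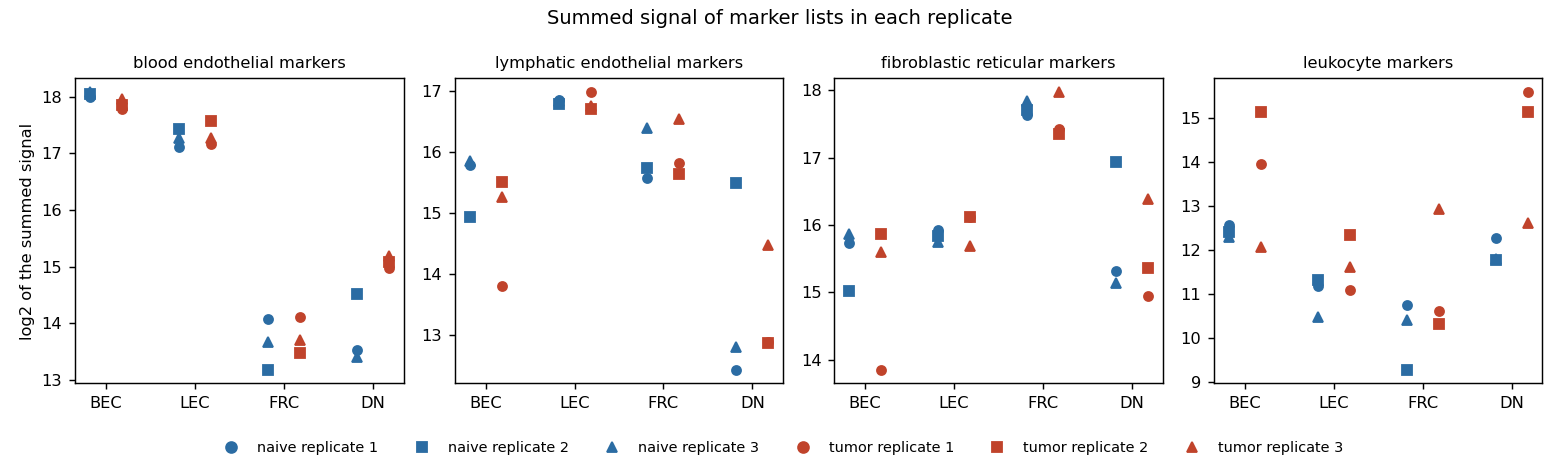
Log2 of the summed linear signal of 4 marker lists (vertical axes) in the naive and tumor replicates of each sorted cell type (horizontal axes), with 1 symbol per replicate. Blood endothelial markers are highest in BECs and LECs, and in tumor BECs and tumor DN cells the leukocyte list spreads up to 15.13 and 15.58.

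In the mouse assembly GRCm38.p6 the genes lie on 6 chromosomes. *Glycam1* spans chr15:103562759-103565081, *Chst4* chr8:110029075-110039401, *Chst2* chr9:95400926-95407270 and *Fut7* chr2:25422351-25426374. *Gcnt1* spans chr19:17326141-17372844, *B3gnt3* chr8:71691373-71702626 and *St3gal6* chr16:58469742-58524260. The 250 bases upstream of the annotated start are shown 5′ to 3′ for *Glycam1*, the sialomucin of the set, and for *Chst4* and *Fut7*, whose naive means were far higher in BECs than in the other cell types and which were both low in naive BEC replicate 2 and tumor BEC replicate 1 and both high in tumor LEC replicate 2. They come from RefSeq on GRCm38.p6, and for *Fut7* the window precedes the more upstream of the 2 starts in the promoter table and lies inside the span of the gene given above. Capitals mark matches, on either strand, to the E-box CANNTG and the AP-1 motif TGANTCA, which do not overlap one another here, and the kappa-B motif was searched as well.
Glycam1 (chr15:103565082-103565331, minus strand): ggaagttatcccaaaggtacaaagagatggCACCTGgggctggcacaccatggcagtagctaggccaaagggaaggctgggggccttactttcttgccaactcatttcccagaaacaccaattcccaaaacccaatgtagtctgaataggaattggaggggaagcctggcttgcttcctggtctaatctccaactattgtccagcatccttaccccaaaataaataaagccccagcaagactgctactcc
Chst4 (chr8:110039335-110039584, minus strand): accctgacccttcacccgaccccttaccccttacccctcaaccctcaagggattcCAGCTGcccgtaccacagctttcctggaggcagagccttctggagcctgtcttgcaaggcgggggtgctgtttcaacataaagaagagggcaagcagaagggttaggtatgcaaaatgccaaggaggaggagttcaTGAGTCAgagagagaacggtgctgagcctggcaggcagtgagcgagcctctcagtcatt
Fut7 (chr2:25422992-25423241, plus strand): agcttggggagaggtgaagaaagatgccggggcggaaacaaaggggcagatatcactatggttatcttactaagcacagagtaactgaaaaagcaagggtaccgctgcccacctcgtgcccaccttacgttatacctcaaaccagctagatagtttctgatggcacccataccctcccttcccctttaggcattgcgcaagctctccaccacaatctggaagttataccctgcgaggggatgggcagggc
The *Glycam1* window held 1 E-box, the *Chst4* window 1 E-box and 1 AP-1 match, and the *Fut7* window none of the 3 motifs. Over 32851 promoters of the same length, 66.2% held an E-box, 6.7% an AP-1 match and 0.4% the kappa-B motif. The 11 annotated starts of the 7 genes included 7 with an E-box, 1 with an AP-1 match and 0 with the kappa-B motif.

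Where these genes are expressed among LN stromal cells was asked first, in naive mice. All 7 had their highest mean in BECs. At an adjusted p under 0.05, 7 of 7 were higher in naive BECs than in naive FRCs, where 20.4% of all genes were, 5 of 7 were higher than in naive DN cells, where 24.8% were, and 3 of 7 were higher than in naive LECs, where 10.1% were. The cell types were read on separate slides, so slide and cell type cannot be told apart in these comparisons. Levels are given as log2 signal, mean ± SD of 3 replicates.

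The sulfotransferase gene *Chst4*, a gene of HEVs in adult LNs, stood at 10.37 ± 1.23 in naive BECs and 5.96 ± 0.27 in naive LECs, a 21.3-fold difference (adjusted p = 5.7e-05). No naive FRC or DN replicate exceeded the background level. The mean of naive BECs was 27.7-fold above that level, which is a lower bound for BECs against FRCs and DN cells. *Fut7*, the fucosyltransferase of leukocytes and HEVs, showed the same order, at 9.67 ± 1.00 in BECs, 6.16 ± 0.13 in LECs, 5.66 ± 0.11 in FRCs and 5.43 ± 0.39 in DN cells. BECs exceeded LECs 11.4-fold (adjusted p = 8.6e-05), and the other neighbours in that order did not differ by the test (adjusted p = 0.53 and 0.77). No naive LEC replicate fell below 6.08, however, and no naive FRC replicate exceeded 5.78. *B3gnt3*, which extends core 1 chains so that they can be sulfated, stood at 11.02 ± 0.23 in BECs, 8.64 ± 0.13 in LECs, 6.89 ± 0.16 in FRCs and 6.89 ± 0.37 in DN cells. Both the step from BECs to LECs (5.19-fold, adjusted p = 1e-05) and that from LECs to FRCs (3.38-fold, adjusted p = 0.00012) passed the test.

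The other 4 genes were less restricted. For *Glycam1*, *Chst2* and *St3gal6* all naive BEC replicates nevertheless lay above all naive LEC replicates. *Glycam1*, which encodes a secreted mucin, read 15.57 ± 0.27 in BECs and 14.93 ± 0.15 in LECs, which did not differ by the test (adjusted p = 0.52). It read 12.90 ± 1.63 in DN cells and 12.40 ± 0.40 in FRCs, so that no sort lacked its signal. The step from LECs to DN cells was 4.11-fold (adjusted p = 0.010). Carry-over between sorts as a source of *Glycam1* signal outside BECs was not tested. In BECs its mean bead intensity on a strip reached 63070, where the highest mean of any probe was 72974, so little range was left above it. *Chst2*, the second HEV sulfotransferase, ranged from 11.73 ± 0.36 in BECs through 10.54 ± 0.05 in LECs and 9.66 ± 0.17 in FRCs to 7.38 ± 1.78 in DN cells. Of these steps only the one from FRCs to DN cells passed the test (4.85-fold, adjusted p = 0.0021). The replicates of naive BECs (11.32 to 11.94), LECs (10.48 to 10.58) and FRCs (9.51 to 9.84) did not overlap. The scatter of *Chst2* in DN cells enters the test of those steps as well. *St3gal6* stood at 13.93 ± 0.12 in BECs, 13.51 ± 0.10 in LECs and 13.42 ± 1.64 in DN cells, which did not differ by the test (adjusted p = 0.66 and 0.90), and at 11.37 ± 0.32 in FRCs, which lay 4.16-fold below DN cells (adjusted p = 0.0059). *Gcnt1*, the core 2 branching enzyme, stood at 12.05 ± 1.06 in BECs, 11.80 ± 1.75 in DN cells, 11.05 ± 0.38 in LECs and 10.15 ± 0.39 in FRCs, and no step between neighbours passed the test (adjusted p = 0.78, 0.39 and 0.35).

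**Figure D2:**
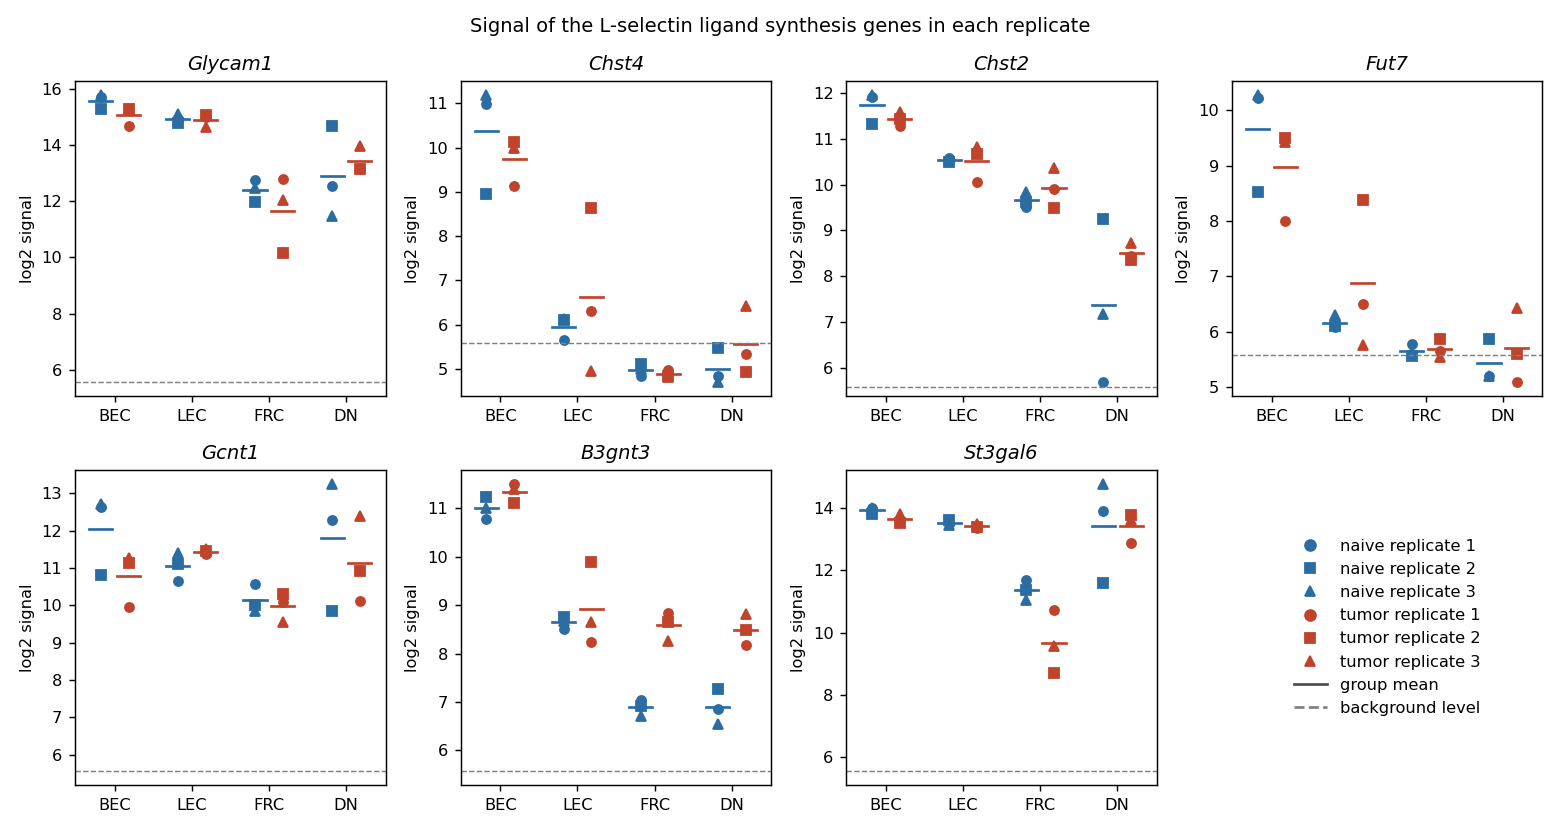
Log2 signal (vertical axes) of the 7 measured genes in each replicate of BECs, LECs, FRCs and DN cells (horizontal axes), with naive replicates in blue, tumor replicates in red, short lines at the group means and a dashed line at the background level of 5.58. *Chst4* and *Fut7* stand far above background in BECs and in 1 tumor LEC replicate, while *Glycam1* and *St3gal6* are high in all 4 cell types.

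Whether BECs change these genes in lymphoma-bearing mice was then examined. None of the 7 was called in BECs by limma, where 5.02% of all genes were, and 0 of 7 had an unadjusted p under 0.05 by limma or by Student's t-test. In a fit that weighted the replicates by their scatter over all genes, *Chst4*, *Fut7* and *Gcnt1* were called lower in tumor BECs, as no other fit with all replicates did. The means of 6 genes were lower and that of *B3gnt3* higher in tumor BECs, and the median log2 change was -0.51 over the 7 genes and -0.04 over all genes tested. In 0 of the 7 genes were naive and tumor BEC replicates free of overlap, which held for 25.8% of all genes. In sorted bulk samples, fewer cells of a kind and less RNA per cell cannot be told apart.

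*Gcnt1* had the largest difference. Its log2 signal was 12.62, 10.82 and 12.70 in naive replicates 1 to 3 and 9.95, 11.14 and 11.27 in tumor replicates 1 to 3. Naive replicate 2 lay among the tumor replicates, and the other naive replicates above all of them. The log2 change was -1.26 (standard error 0.68, 95% interval -2.68 to 0.16, adjusted p = 0.32), and a second probe of the gene gave -1.47. *Chst4* read 10.99, 8.95 and 11.18 in naive and 9.13, 10.12 and 9.98 in tumor replicates. Here naive replicate 2 was the lowest of all 6, and the log2 change was -0.63 (95% interval -2.01 to 0.75, adjusted p = 0.67), with -0.69 by a second probe. *Fut7* read 10.22, 8.52 and 10.27 in naive and 8.01, 9.50 and 9.42 in tumor replicates. Naive replicate 2 and tumor replicate 1 were the low ones, and the log2 change was -0.70 (95% interval -1.84 to 0.45, adjusted p = 0.53).

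The remaining genes were steadier. *Glycam1* read 15.69, 15.26 and 15.76 in naive and 14.66, 15.28 and 15.24 in tumor BECs, a log2 change of -0.51 (95% interval -1.78 to 0.76, adjusted p = 0.72). Only naive replicate 2 reached down into the tumor range. *Chst2* read 11.92, 11.32 and 11.94 in naive and 11.27, 11.44 and 11.59 in tumor BECs, a log2 change of -0.29 (adjusted p = 0.82), and again naive replicate 2 alone overlapped the tumor replicates. *St3gal6* read 14.00, 13.79 and 13.99 in naive and 13.58, 13.51 and 13.80 in tumor BECs, a log2 change of -0.30 (adjusted p = 0.83). Its naive replicate 2 and tumor replicate 3 were nearly level. *B3gnt3* read 10.79, 11.24 and 11.02 in naive and 11.50, 11.10 and 11.40 in tumor BECs, a log2 change of 0.32 (95% interval -0.32 to 0.95, adjusted p = 0.63), and its naive replicate 2 was the highest of the naive BECs.

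**Figure D3:**
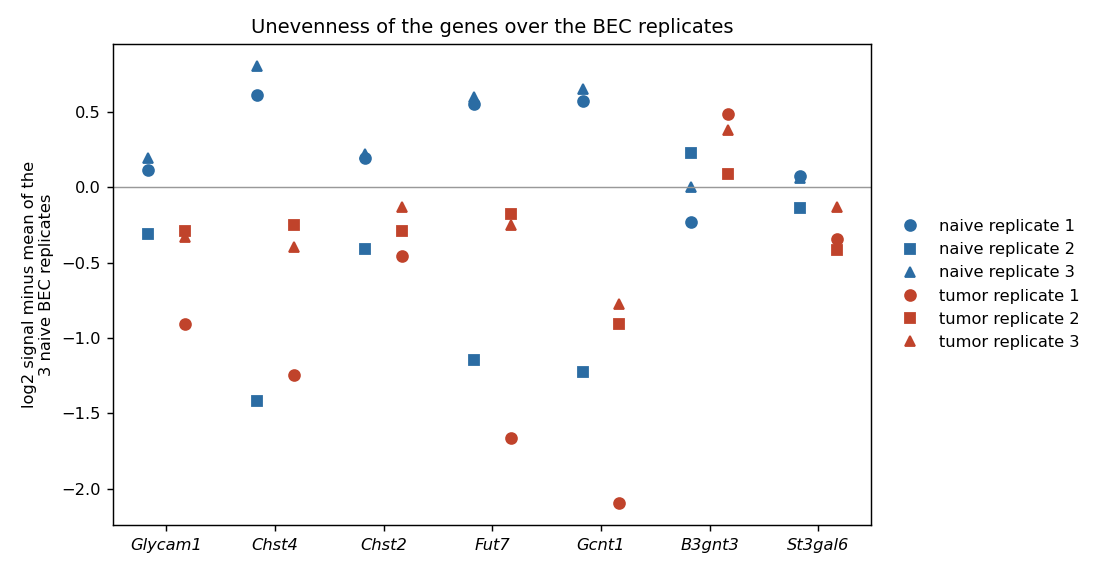
Log2 signal of each gene in the 6 BEC replicates (vertical axis) as the difference from the mean of the 3 naive BEC replicates, by gene (horizontal axis), with 1 symbol per replicate and naive in blue and tumor in red. Naive replicate 2 (blue squares) is the low naive replicate for 6 of the 7 genes and tumor replicate 1 (red circles) the lowest tumor replicate for 5, whereas *B3gnt3* shows the reverse.

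The unevenness over BEC replicates was carried by 3 of the genes. The pooled within-group SD on the log2 scale was 0.95 for *Chst4*, 0.92 for *Fut7* and 0.91 for *Gcnt1*, against a median of 0.24 over all genes, and placed them at the percentiles 96.5, 96.2 and 96.1. *Glycam1* at 0.31 and *Chst2* at 0.28 lay at percentiles 67.1 and 60.2, *B3gnt3* at 0.22 at 43.2, and *St3gal6* at 0.14 at 15.6. For *Chst4*, *Fut7* and *Gcnt1* the strips of a replicate agreed far more closely than the replicates. In BECs the largest difference between strips of a replicate was 0.30 for *Chst4*, 0.39 for *Fut7* and 0.46 for *Gcnt1*, whereas the naive replicates ranged over 2.23, 1.75 and 1.88. Each of these probes was read on 10 to 35 beads per BEC strip, with a median standard error over beads of 0.08 to 0.09 on the log2 scale. For *Glycam1* and *St3gal6* the largest strip difference in BECs, 0.63 and 0.39, exceeded the range of the naive and of the tumor replicates.

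Naive BEC replicate 2 differed from the other naive BECs in gene groups as well. Of 9 capillary endothelial genes 7 were higher in it than in both others (median log2 difference 0.39). So were 7 of 9 pericyte and smooth muscle markers (median 1.43) and 8 of 10 fibroblastic reticular markers (median 1.04). The log2 summed signal of the fibroblastic list, which its brightest genes set, was lower in it, at 15.02 against 15.73 and 15.86. The brightest gene of that list in BECs, *Ccl21a*, also counts among the lymphatic markers and the other HEV and venous genes. Sums of the fibroblastic list in BECs therefore do not track reticular cells alone. Of 6 genes of the lymphotoxin receptor pathway 5 were lower (median -0.66), and of 14 other HEV and venous genes 8 were (median -0.23), while over all genes the median was 0.00. Left out, it moved the log2 change in BECs to -1.34 for *Chst4* (adjusted p = 0.28), -1.27 for *Fut7* (adjusted p = 0.21), -1.87 for *Gcnt1* (adjusted p = 0.15) and -0.50 for *Chst2* (adjusted p = 0.71), none of which passed the test. Without tumor BEC replicate 1 the changes were -0.32 for *Chst4*, -0.21 for *Fut7*, -0.84 for *Gcnt1* and -0.31 for *Glycam1*, and without naive BEC replicate 3 that of *Chst4* was -0.23. Leukocyte markers also differed among these libraries. The log2 summed signal of 6 leukocyte markers was 12.29 to 12.56 in naive and 12.06 to 15.13 in tumor BECs, and that of 4 B cell markers 8.84 to 9.84 and 9.57 to 13.03. In tumor BECs 8 of 10 fibroblastic reticular markers had a higher mean (median log2 change 1.21, 0 called, 3 with an unadjusted p under 0.05 by limma) while their log2 summed signal was 13.85 to 15.86. Of 8 lymphatic markers 6 had a lower mean (median of the list -0.76, 0 called). An unadjusted p under 0.05 by limma was found for 2 of the 8, *Prox1*, which was lower (log2 change -1.39), and *Reln*, which was higher (1.74, adjusted p = 0.056). The part of these marker lists in the changes was not tested.

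**Figure D4:**
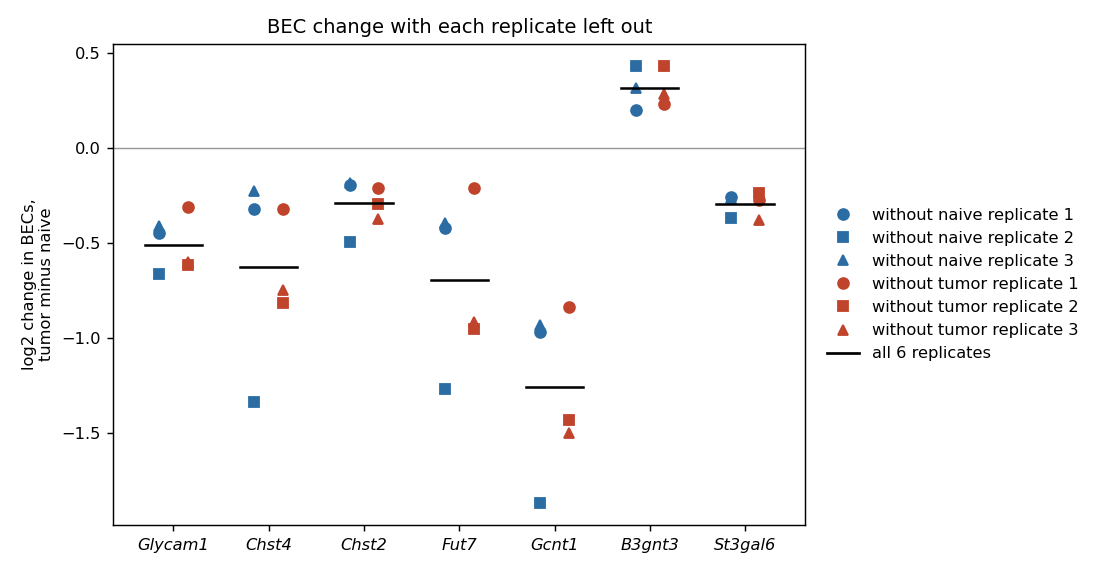
Log2 change in BECs, tumor minus naive (vertical axis), of each gene (horizontal axis) with all 6 replicates (black lines) and with each replicate left out in turn (symbols). The sign holds for all 7 genes, and the change of *Chst4*, *Fut7* and *Gcnt1* is largest in size, -1.34, -1.27 and -1.87, without naive replicate 2.

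In FRCs 1 of 7 genes was called, against 10.4% of all genes, and for 2 of 7 the 2 conditions were free of overlap, against 39.2% of all genes. *B3gnt3* read 7.03, 6.91 and 6.72 in naive and 8.85, 8.66 and 8.27 in tumor FRCs. All tumor replicates lay above all naive ones, and the gene rose 3.26-fold, which is 1.70 ± 0.30 (SE) on the log2 scale (adjusted p = 0.0015). The exact two-sided permutation test of 3 against 3 replicates gave its smallest possible p of 0.1. The log2 change was 0.93 with the mean of the probes and 1.00 from the bead files, both still called, and the second probe of *B3gnt3*, between 5.29 and 5.75 in all group means, gave 0.15. The blood endothelial markers did not rise with it. Their log2 summed signal was 13.18 to 14.07 in naive and 13.48 to 14.11 in tumor FRCs, and 0 of 10 were called by limma (0 with an unadjusted p under 0.05). Endothelial genes of other lists were called higher in tumor FRCs. These were the arterial genes *Gja4* (log2 change 2.78) and *Dll4* (1.04) and the HEV and venous genes *Sele* (2.48) and *Lrg1* (0.99). No other gene of the arterial, capillary, or HEV and venous lists was called there. The part of these endothelial genes in the change of *B3gnt3* was not tested. The leukocyte list was at 9.28 to 10.74 in naive and 10.32 to 12.92 in tumor FRCs. Of 4 myeloid markers *Csf1r* (log2 change 0.94, adjusted p = 0.016) and *Cd14* (1.80, adjusted p = 0.019) were called higher there by limma. The others, *Lyz2* and *Fcgr3*, were not called. The part of the leukocyte and myeloid markers in the change of *B3gnt3* was not tested.

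*St3gal6* read 11.68, 11.37 and 11.04 in naive and 10.74, 8.70 and 9.59 in tumor FRCs, again without overlap. The log2 change was -1.69 (standard error 0.54, adjusted p = 0.052) and a second, dimmer probe read 5.89 in naive FRCs and 5.32, below the background level, in tumor FRCs, so that it gives no size. Without tumor replicate 1 it was -2.22 (adjusted p = 0.026), and without tumor replicate 2 -1.20 (adjusted p = 0.28). *Glycam1* read 10.15 in tumor FRC replicate 2 and 11.97 to 12.80 in the other FRC replicates, and its log2 change of -0.74 (adjusted p = 0.50) became 0.02 without that replicate. *Chst4* stayed below the background level in all 6 FRC replicates and *Fut7* at 5.54 to 5.88, close to it. *Chst2* at 9.48 to 10.36 and *Gcnt1* at 9.56 to 10.58 overlapped between naive and tumor FRCs.

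In DN cells 1 of 7 genes was called, against 7.27% of all genes, and replicates did not overlap for 1 of 7, against 15.9%. *B3gnt3* read 6.85, 7.27 and 6.54 in naive and 8.17, 8.49 and 8.81 in tumor DN cells. It rose 3.04-fold, which is 1.60 ± 0.30 (SE) on the log2 scale (adjusted p = 0.0028), but was not called in a fit of the DN replicates alone (adjusted p = 0.18) or by Student's t-test after adjustment (adjusted p = 0.51), and its log2 change was 0.83 with the mean of the probes. In tumor DN cells 7 of 10 blood endothelial markers rose as well, and their log2 summed signal was 13.40 to 14.52 in naive and 14.98 to 15.18 in tumor replicates. The leukocyte list reached 15.58 in tumor DN cells against 12.27 in naive ones. Their part in the change of *B3gnt3* was not tested.

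In DN cells the pooled within-group SD was 1.49 for *Gcnt1*, 1.27 for *Chst2*, 1.21 for *St3gal6* and 1.20 for *Glycam1*, against a median of 0.38 over all genes. *Chst2* read 5.70, 9.25 and 7.19 in naive and 8.44, 8.35 and 8.72 in tumor DN cells. Naive replicate 2 lay above all tumor replicates, and the log2 change was 1.12 (adjusted p = 0.20), 2.06 without naive replicate 2 (adjusted p = 0.00073) and 0.29 without naive replicate 1. *Glycam1* at 14.67 was also highest, and *Gcnt1* at 9.85 and *St3gal6* at 11.59 lowest, in that replicate among all DN replicates. In it all 10 blood endothelial and all 10 fibroblastic reticular markers exceeded the other naive DN replicates, with median log2 differences of 1.34 and 2.31. The log2 changes in DN cells were 0.52 for *Glycam1*, 0.00 for *St3gal6* and -0.65 for *Gcnt1*, and without naive replicate 2 they were 1.41, -0.91 and -1.63, none of which passed the test. *Chst4* and *Fut7* exceeded 6 in DN cells only in tumor replicate 3, at 6.43 and 6.44, and their log2 changes were 0.56 and 0.28 (adjusted p = 0.65 and 0.81).

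In LECs 0 of 7 genes were called by limma, against 0.902% of all genes, 0 had an unadjusted p under 0.05 by limma or Student's t-test, and 0 of 7 were free of overlap, against 20.4% of all genes. *Chst4* read 5.65, 6.10 and 6.12 in naive and 6.31, 8.63 and 4.95 in tumor LECs, and *Fut7* 6.08, 6.10 and 6.30 in naive and 6.50, 8.37 and 5.76 in tumor LECs. Tumor LEC replicate 2 was the high one for both, and for *B3gnt3* at 9.89 against 8.24 to 8.76 in the other LEC replicates. The log2 changes of 0.68, 0.72 and 0.28 became -0.32, -0.03 and -0.20 without it. In that replicate 8 of 9 capillary genes (median log2 difference 2.08) and 11 of 14 other HEV and venous genes (median 0.71) exceeded the other tumor LECs, and 7 of 8 lymphatic markers were lower (median -0.32). Also higher in it were 6 of 8 arterial genes (median 1.13), 6 of 9 pericyte and smooth muscle markers (median 0.72), 5 of 6 leukocyte markers (median 1.02) and 3 of 4 B cell markers, and their part in these values was not tested. Over the 6 LEC replicates *Glycam1* ranged from 14.62 to 15.10, *Chst2* from 10.06 to 10.81 and *St3gal6* from 13.35 to 13.62. *Gcnt1* had a log2 change of 0.39 in LECs (adjusted p = 0.99).

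**Figure D5:**
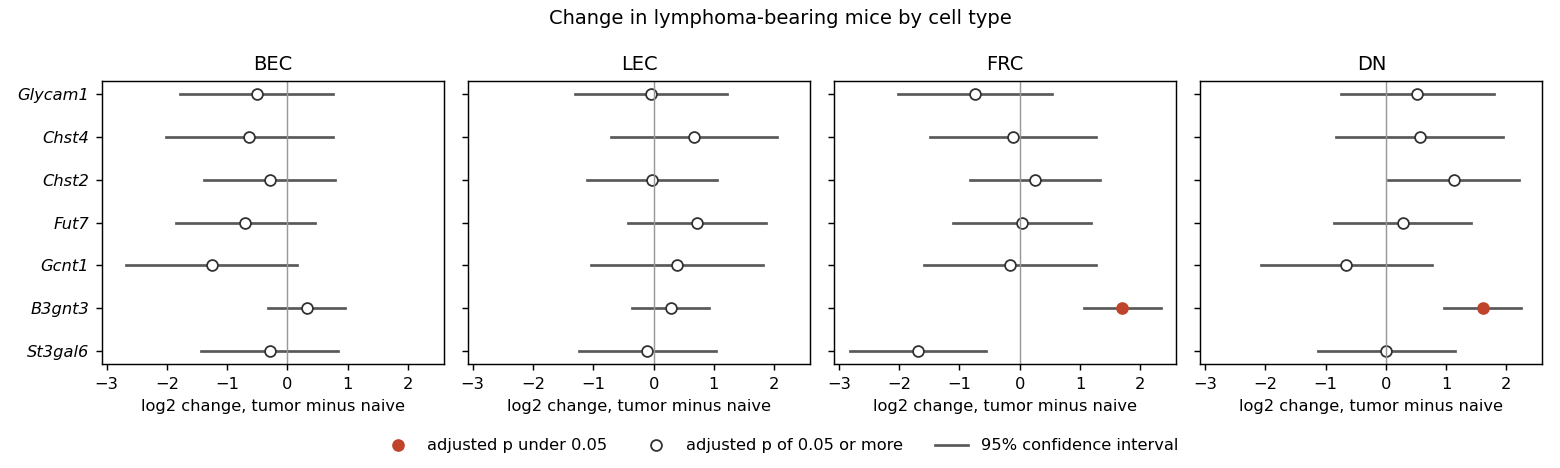
Log2 change, tumor minus naive (horizontal axes), of the 7 genes in BECs, LECs, FRCs and DN cells, with 95% confidence intervals from the limma fit (bars) and called genes filled. Only *B3gnt3* is filled, at 1.70 in FRCs and 1.60 in DN cells.

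Whether the change in BECs differed from that in the other cell types was tested directly. By limma 0 of 7 genes were called against FRCs, where 0.917% of all genes were, 0 of 7 against LECs, where 0.00752% were, and 0 of 7 against DN cells, where 0.481% were. An unadjusted p under 0.05 was found for 1, 0 and 1 of the 7, in both cases *B3gnt3*. Its change in BECs was lower by 1.39 on the log2 scale than in FRCs (standard error 0.43, adjusted p = 0.15), and that difference was called in a fit of the BEC and FRC replicates alone (adjusted p = 0.032). Against DN cells the difference for *B3gnt3* was -1.29 (adjusted p = 0.26). For *Chst2* the change in BECs differed from that in DN cells by -1.42 (adjusted p = 0.58), and by -2.35 without naive DN replicate 2 (adjusted p = 0.0067).

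Other genes of the pathway were read in BECs against the 5.02% of all genes called there by limma, a share at which lists of this size hold few calls. Of 8 other sialomucin core proteins tested 0 were called (0 with an unadjusted p under 0.05), with log2 changes of 1.51 for *Selplg*, -0.71 for *Cd300lg*, -0.53 for *Madcam1* and -0.21 for *Spn*. Of 10 enzymes that start or branch O-glycans 0 were called (2 unadjusted), with -0.41 for *Galnt11*, 0.51 for *Galnt1*, 0.26 for *Galnt12* and -0.24 for *Galnt10*. Of 17 other galactosyl, N-acetylglucosaminyl, sialyl and fucosyl transferases 0 were called (2 unadjusted), with 0.75 for *B3gnt8* (adjusted p = 0.056), -0.65 for *B4galt4*, -0.64 for *Fut4* and 0.71 for *B3gnt5*. Among 3 further sulfotransferases 0 were called (1 unadjusted), and *Chst3*, which sulfates chondroitin, had a log2 change of 1.96 (adjusted p = 0.10), *Chst7* 0.10 and *Chst1* -0.10. Of 17 genes that supply nucleotide sugars and the sulfate donor PAPS 0 were called (2 unadjusted), with 0.50 for *Slc35c1*, the Golgi GDP-fucose transporter, -0.59 for *Uap1*, 0.54 for *Nans* and -0.35 for *Fpgt*.

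Lysophosphatidic acid, the product of the enzyme encoded by *Enpp2*, acts on receptors of its own and is broken down by lipid phosphatases. Of 8 such genes 1 was called in BECs, *Plpp2*, a lipid phosphatase, which rose 1.71-fold (log2 change 0.78, adjusted p = 0.024). *Lpar6*, *Plpp3* and *Lpar1* had log2 changes of -0.43, -0.64 and 0.61. The call of *Plpp2* was lost without naive BEC replicate 2, naive BEC replicate 3, tumor BEC replicate 1 or tumor BEC replicate 2, and in a fit of the BEC replicates alone. Of 14 other HEV and venous endothelial genes 0 were called by limma (0 unadjusted) and 13 had a negative change, with a median of -0.51, the same as over the 7 genes. *Il6st* had -0.55, *Icam1* -0.65, *Slco2a1* 0.53 and *Ackr1*, the atypical chemokine receptor of venules, -0.73. Of 9 capillary genes 0 were called and 1 had an unadjusted p under 0.05 (*Ramp3* -0.90, *Rgcc* -0.54, *Car4* -0.65, *Col4a1* 0.19; median -0.29), and of 8 arterial genes 0 were called and 2 had an unadjusted p under 0.05 (*Efnb2* -0.59, *Bmx* -0.64, *Dll4* -0.53, *Hey1* -0.51; median -0.52). Among 6 genes of the lymphotoxin receptor pathway, which maintains HEVs, 0 were called in BECs (1 unadjusted), with -0.95 for *Traf2*, -0.34 for *Map3k14*, -0.31 for *Relb* and -0.34 for *Birc2*. Of 9 pericyte and smooth muscle markers 1 was called in BECs, *Acta2*, the smooth muscle actin gene, which rose with a log2 change of 1.26 (adjusted p = 0.032), while 5 of the 9 had a positive and 4 a negative change (median 0.07).

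In FRCs, genes of these lists were called beside *B3gnt3*, and the following were named after their values were seen. Of the pericyte list *Mcam* rose with a log2 change of 3.2 (adjusted p = 0.00037). Of the arterial list *Gja4* rose with 2.78 (adjusted p = 5.7e-06) and *Dll4* with 1.04 (adjusted p = 0.025). Of the HEV and venous list *Sele* rose with 2.48 (adjusted p = 0.011) and *Lrg1* with 0.99 (adjusted p = 0.044). *Madcam1*, a mucin-like addressin, rose with a log2 change of 2.20 (adjusted p = 0.0033), *Fut4*, a fucosyltransferase, with 1.45 (adjusted p = 0.016) and *B4galt5* with 1.03 (adjusted p = 0.0049), whereas *B3gnt8* fell by 0.77 (adjusted p = 0.031) and *St3gal3* by 0.73 (adjusted p = 0.036). *Galnt11* fell by 0.54 (adjusted p = 0.024). Of 6 lymphotoxin pathway genes 3 rose there, against 10.4% of all genes called, namely *Nfkb2* with 1.54 (adjusted p = 0.011), *Birc2* with 1.20 (adjusted p = 0.022) and *Relb* with 0.96 (adjusted p = 0.040). Among the lists of glycan enzymes, core proteins and supply genes, *Chst3* rose in DN cells with a log2 change of 2.89 (adjusted p = 0.014). *Chst7* rose there with 0.86 (adjusted p = 0.015), whereas *Galnt11* fell by 0.55 (adjusted p = 0.028). In LECs no gene of the lists of glycan enzymes, core proteins or supply genes was called by limma, and 1 transferase gene had an unadjusted p under 0.05.

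The genes whose 8 group means followed those of *Glycam1* most closely were sought among 11379 genes above background in BECs. The highest Pearson correlations were 0.996 for *Adgrf5*, an adhesion G protein-coupled receptor, 0.990 for *Acer2*, an alkaline ceramidase, 0.989 for *Prkab1*, 0.988 for *Mapk12*, 0.987 for *Cd300lg*, another sialomucin that binds L-selectin, and 0.986 for *Prkch*. *Adgrf5* had group means of 13.15 in naive BECs, 12.03 in naive LECs, 7.95 in naive DN cells and 7.51 in naive FRCs. Among the 6 other genes of the set the correlation with *Glycam1* ranged from 0.633 for *Gcnt1* to 0.824 for *St3gal6*. The 8 points are group means from the same libraries and describe these arrays only.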

How the data were processed

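The authors deposited log2 values of 45281 probes on 48 array strips, and how these were normalized is not given in the sources used here. The deposited bead files list the intensity of each bead after a local background subtraction. Symbols came from the platform annotation (34885 probes with 1 gene symbol, 18 with several and 10378 with none) and were updated through the Entrez ID where RefSeq held it, for 34807 probes. The 45160 probes measured on all strips were quantile normalized, and strips of a replicate were averaged. The background level of 5.58 is 3 robust SDs above the mode of the values. Probes with 1 symbol and a group mean above it were kept, and the brightest stood for its gene. Changes were tested with limma 3.58.1 in R 4.3.3 in 1 model of 8 group means, with Benjamini-Hochberg adjustment over 13299 genes and calls at an adjusted p under 0.05. The fit was tested on simulated data. Nothing in the labels says how the pools of the replicates relate, and p-values cover only the spread between them. The precision is limited by 3 replicates per group.

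The genes, the lists and the tests were chosen with earlier results of these data known. All 7 measured genes are named, with the 4 genes of smallest adjusted p in BECs of each pathway list, every gene called there, the brightest gene of each marker list in BECs and the 6 genes most like *Glycam1*. Same-numbered naive and tumor replicates deviated together weakly over all genes in LECs (correlations 0.15 to 0.23) and less evenly in FRCs (0.03 to 0.25). They did not in BECs (-0.22 to 0.04) or DN cells (-0.19 to -0.02). These values do not separate LECs from FRCs, and a replicate block changed no call of the 7 genes in either. The titles of all samples contain a word for endothelium, and cell types were taken from the sorted populations. Bead codes were linked to 45105 probes by their profile over strips with Python 3.11.15. Alternatives varied the normalization, strips, filters, probes, variance model, weights, block, test, bead files and replicates.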

Additional observations from a re-analysis of the deposited data

How the results depend on the processing

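In BECs 0 of the 7 genes were called under every alternative with all replicates except array weights, which called 3 (*Chst4* -1.48, *Fut7* -1.73 and *Gcnt1* -2.22 on the log2 scale). That fit gave tumor BEC replicate 1 a weight of 5.09 and naive BEC replicate 2 one of 0.543, and its weights stopped short of convergence. With each BEC replicate left out in turn 0 were called, and no change in BECs turned its sign. Over the alternatives with all replicates the change in BECs ranged from -0.892 to -0.3 for *Glycam1*, -0.529 to -0.235 for *Chst2*, -0.375 to -0.283 for *St3gal6* and 0.171 to 0.491 for *B3gnt3*, with none called. In FRCs 2 genes rather than 1 were called, *St3gal6* being added, with strips centred on their medians, the second strip alone, all 48 strips with the replicate as a random effect, the stricter filter, an intensity trend, a trend with a robust prior, the groups of the comparison alone and array weights, and 1 to 2 with a replicate left out. In DN cells 0 genes were called with the groups of the comparison alone and by Student's t-test after adjustment, 3 with array weights, and 1 to 2 with a replicate left out. Genes higher in naive BECs than in naive LECs numbered 6 with the groups alone, 5 with array weights, and 5 by the adjusted and 6 by the unadjusted t-test, and those higher than in naive DN cells 3 by the adjusted t-test. Against FRCs the count was 7, 6 by the adjusted t-test, and 6 to 7 with a replicate left out. The change in BECs differed from that in FRCs for 1 gene with the groups alone and 3 with array weights, from that in LECs for 1 with array weights, and from that in DN cells for 2 with array weights and 0 to 1 with a replicate left out.

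Small changes turned their sign. *St3gal6* in DN cells was -0.035 with values as deposited, -0.037 with centred strips, -0.151 with the second strip alone and -0.601 with array weights. With the first strip alone *Glycam1* in LECs was 0.064, *Chst2* in LECs 0.062 and *Fut7* in DN cells -0.003. *Gcnt1* in FRCs was 0.257 with the mean of its probes, *Chst2* in LECs 0.042 with array weights and 0 from the bead files, and *Fut7* in FRCs -0.003 from the bead files with normexp. With a replicate left out, the changes in FRCs ran from -1.311 to 0.015 for *Glycam1*, -0.057 to 0.109 for *Fut7* and -0.321 to 0.056 for *Gcnt1*. In DN cells they ran from -0.198 to 1.406 for *Glycam1*, -0.082 to 0.59 for *Fut7*, -1.627 to 0.07 for *Gcnt1* and -0.911 to 0.673 for *St3gal6*. In LECs they ran from -0.124 to 0.088 for *Glycam1*, -0.325 to 1.514 for *Chst4*, -0.173 to 0.204 for *Chst2*, -0.03 to 1.276 for *Fut7* and -0.201 to 0.625 for *B3gnt3*. The cause of these differences was not tested.

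Under a replicate block the calls stayed at 0 of the 7 genes in BECs, 1 in FRCs, 0 in LECs and 1 in DN cells, and *B3gnt3* had an adjusted p of 0.0067 in FRCs and 0.0095 in DN cells. The call of *Plpp2* in BECs was lost under it. The intervals rest on 3 pools per group and on 1 spread per gene shared by all 8 groups. The 95% intervals of the changes in BECs span more than 2 log2 units for all 7 genes except *B3gnt3*. For *St3gal6*, *Chst2* and *Glycam1* the pooled within-group SD was 0.14, 0.28 and 0.31 in BECs but 1.21, 1.27 and 1.20 in DN cells. The widths for these genes therefore do not measure the spread in BECs alone. *Chst4* in FRCs and naive DN cells did not exceed the background level and *Fut7* in FRCs stayed near it, where a decrease could not have been measured, and *Glycam1* lies near the top of the intensity scale in BECs.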
